A study of Homo sapiens with 2 samples.

Results

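The NFAT transcription factors, the phosphatase calcineurin that activates them and the calcineurin regulators of the RCAN family were examined in J82 cells, an established human bladder cancer line. The genes were NFATC1, NFATC2, NFATC3, NFATC4, NFAT5, PPP3CA, PPP3CB, PPP3CC, RCAN1 and RCAN2, taken by name from the array's annotation. All 10 were measured, out of 14232 genes that had a probe set annotated with that gene alone. Each was read by 1 such probe set, and its value is a signal on the log2 scale. J82 cells grown in medium with serum were stained with the DNA dye Hoechst and sorted by flow cytometry into a side population (SP), which keeps little dye, and a non-side population (NSP), which retains it. Both groups came from the same untreated line, and each was hybridised to 1 exon array. Neither population was measured again, so differences carry no p-value and no spread between samples, and all values describe these 2 arrays. In sorted bulk RNA, fewer expressing cells and less RNA per cell cannot be told apart.

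A rise in cytosolic calcium activates calcineurin, which removes phosphates from NFATC1 to NFATC4 and lets them enter the nucleus. Kinases such as GSK3B and DYRK1A put the phosphates back and return NFAT to the cytosol. NFAT often binds DNA beside AP-1, the FOS and JUN factors, and is best known for switching on cytokine genes in lymphocytes. NFAT5 shares the DNA-binding domain but responds to osmotic stress and not to calcineurin. RCAN1 binds and restrains calcineurin and is itself induced by it.

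The table held 22011 probe sets, with values from 2.15 to 13.99 in SP and from 2.11 to 13.93 in NSP. The median of all values, 7.44, serves below as a floor for dim signals. Of the 14232 genes, 7549 reached it on at least 1 array. The median of their differences (SP minus NSP) was -0.05, and these lay between -0.51 and 0.63 for 95% of genes. For the 6683 genes under the floor, 95% lay between -0.43 and 0.46. Of the simple epithelial keratin genes, KRT8 (13.18 in SP and 12.77 in NSP) and KRT18 (10.57 in SP and 10.32 in NSP) were bright, whereas KRT19 (7.73 in SP and 7.58 in NSP) and KRT7 (7.55 in SP and 7.53 in NSP) were close to the floor. The mesenchymal filament gene VIM had 10.12 in SP and 10.16 in NSP, and PPARG, a nuclear receptor gene of luminal urothelium, was the one of these markers past 1.5-fold, at 9.20 in SP and 8.50 in NSP. GATA3, a urothelial transcription factor gene, and the uroplakin genes UPK1A, UPK1B, UPK2 and UPK3A, markers of differentiated urothelium, were under the floor on both arrays. The dye transporter genes ABCG2, ABCB1 and ABCC1 had differences of 0.45, 0.70 and 0.38. Only that of ABCB1 lay outside the range of 95% of genes of its signal class, and both ABCG2 values were under the floor.

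NFATC2 was the only one of the 10 genes with a difference of 1.5-fold or more. Its signal was 9.41 in the SP array and 7.92 in the NSP array, both above the floor. The difference, taken before rounding, was 1.5 on the log2 scale, or 2.82-fold higher in SP. Among all 14232 genes, 5 had a larger difference in favour of SP. These were VCAM1 (1.82), EYA4 (1.79), IL1A (1.79), EGR1 (1.71) and CPEB2 (1.52). NFATC2 was included because of this difference, which is therefore a description and supports nothing further. For scale, SP exceeded NSP by 1.5-fold or more for 3.1% of the 7549 genes and fell short by that margin for 1.43%. At 2-fold the shares were 0.609% higher and 0.119% lower.

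Upstream sequence is given for NFATC2 because it is the gene that stood apart, and for RCAN1 because the gene is known to have an internal promoter that answers to NFAT. RefSeq (GRCh38.p14) lists 2 start sites for NFATC2, and the 250 bases before each are shown 5′ to 3′ on the gene's strand. The array gives NFATC2 a single value, so it does not tell which start was used. Capitals mark GGAAA, the core that NFAT binds, or its reverse complement TTTCC, and TGANTCA, the AP-1 site. The first window is chr20:51562840-51563089 on the minus strand, the second chr20:51542720-51542969 on the minus strand, and the RCAN1 window chr21:34526823-34527072 on the minus strand.
NFATC2 first start: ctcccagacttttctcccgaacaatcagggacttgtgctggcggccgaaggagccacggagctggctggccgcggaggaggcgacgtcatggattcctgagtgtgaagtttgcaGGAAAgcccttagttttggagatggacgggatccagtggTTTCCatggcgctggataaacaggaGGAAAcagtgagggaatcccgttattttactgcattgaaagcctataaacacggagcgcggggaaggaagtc
NFATC2 second start: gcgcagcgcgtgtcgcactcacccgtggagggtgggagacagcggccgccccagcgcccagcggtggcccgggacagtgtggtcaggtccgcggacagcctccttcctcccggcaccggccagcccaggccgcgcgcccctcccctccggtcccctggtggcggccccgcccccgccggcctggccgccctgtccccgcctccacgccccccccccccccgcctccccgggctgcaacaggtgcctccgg
RCAN1 internal start: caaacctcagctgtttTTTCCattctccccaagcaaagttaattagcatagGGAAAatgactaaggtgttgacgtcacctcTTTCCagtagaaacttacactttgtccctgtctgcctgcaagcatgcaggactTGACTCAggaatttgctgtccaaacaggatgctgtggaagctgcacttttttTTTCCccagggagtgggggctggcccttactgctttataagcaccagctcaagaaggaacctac

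The window before the first NFATC2 start held 3 GGAAA matches on either strand, and the one before the second start held none. The second window was 80.8% G and C, against 54.8% for the first. Neither held TGANTCA. RCAN1 has 6 listed starts, and the window shown, the fourth, held 4 GGAAA matches and 1 TGANTCA match, with no overlap between the motifs. It was picked from the 6 because it held GGAAA, so its GGAAA count was fixed in part by that choice. Whether its start is the promoter known to answer to NFAT was not tested. The other 5 RCAN1 windows held no GGAAA, and 1 of them held a TGANTCA match. RefSeq windows were matched for 6 of the 10 genes (NFATC1 to NFATC4, RCAN1 and RCAN2), 17 in all, and 6 of the 17 held GGAAA. Over all 35116 windows of the same length in the table, 55.6% held at least 1 GGAAA, 7.12% at least 3 and 1.87% at least 4, while 6.57% held TGANTCA. A match describes the letters of the window and not a bound site.

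**Figure D1:**
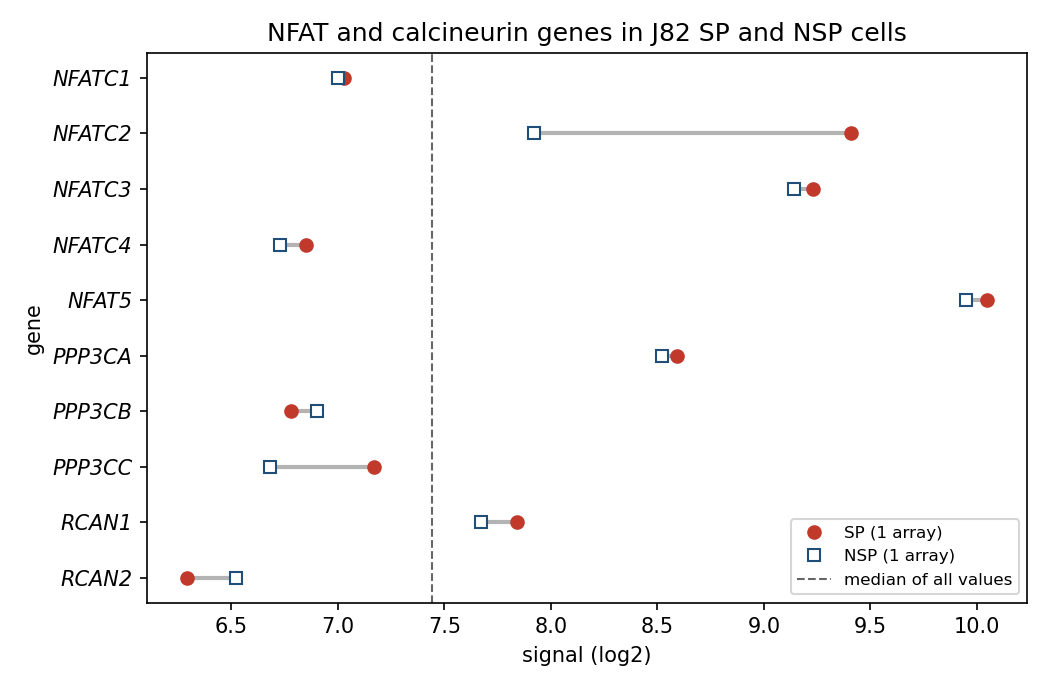
Signal (log2, horizontal axis) of each of the 10 genes in the SP array (filled circles) and the NSP array (open squares), with the median of all values (7.44) as a dashed line. NFATC2 shows the widest gap, 9.41 in SP against 7.92 in NSP; the next widest is that of PPP3CC, under the dashed line.

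The other calcineurin-regulated factors differed little. NFATC3, a widely expressed member of the family, had a signal of 9.23 in SP and 9.14 in NSP, a difference of 0.09. NFATC1, known for its part in heart valve and osteoclast development, had 7.03 in SP and 7.0 in NSP. NFATC4 had 6.85 in SP and 6.73 in NSP. All 3 were thus slightly higher in SP, with differences from 0.03 to 0.12, inside the range of 95% of genes of their signal class, and NFATC1 and NFATC4 were under the floor on both arrays. The difference of NFATC2 exceeded that of NFATC1 by 1.47, that of NFATC3 by 1.40 and that of NFATC4 by 1.38 on the log2 scale. With 1 array each, these gaps have no error and were not tested.

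NFAT5, the osmotic stress factor, had a signal of 10.05 in SP and 9.95 in NSP, a difference of 0.10. NFATC3 and NFAT5 each had a further probe set annotated also with another gene. The set shared by ESRP2 and NFATC3 read 7.0 in SP and 7.01 in NSP. The set shared by NQO1 and NFAT5 read 12.57 in SP and 12.55 in NSP. Neither shared set moved by as much as the gene's own, and including them gave differences of 0.05 for NFATC3 and 0.06 for NFAT5.

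Of the 3 catalytic subunit genes of calcineurin, 2 had a higher value in SP and 1 a lower one. PPP3CA, which encodes the alpha isoform, had a signal of 8.59 in SP and 8.52 in NSP. PPP3CB, the beta isoform, had 6.78 in SP and 6.90 in NSP, and was 1 of the 2 genes of the 10 with a lower value in SP. PPP3CC, the gamma isoform, first described in testis, had 7.17 in SP and 6.68 in NSP, a difference of 0.49 or 1.40-fold. That was the second largest difference of the 10 and lay just outside the range of 95% of genes under the floor (upper end 0.46). Both PPP3CC values were dim, the higher one 0.27 below the floor, so the gene did not enter the count at 1.5-fold and would not have reached that size.

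Of the calcineurin regulators, RCAN1 was slightly higher in SP and RCAN2 slightly lower. RCAN1 had a signal of 7.84 in SP and 7.67 in NSP, a difference of 0.17 or 1.12-fold. Which RCAN1 exons the probe set reads is not known here, so its value was not assigned to any start. RCAN2 had 6.29 in SP and 6.52 in NSP, a difference of -0.23, with both values under the floor. Both differences lay inside the range of 95% of genes of their signal class.

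Over the 10 genes, 8 had a higher value in SP and 2 a lower one, beside 49.2% of all genes with a higher value in SP. The median difference of the 10 was 0.10, beside 0.00 for all genes. Without NFATC2, 7 of 9 were higher and the median was 0.09. The genes that reached the floor were NFATC2, NFATC3, NFAT5, PPP3CA and RCAN1, and NFATC2 alone passed 1.5-fold, with none lower by that margin. Since the genes were chosen from this contrast, nothing is read from these counts.

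**Figure D2:**
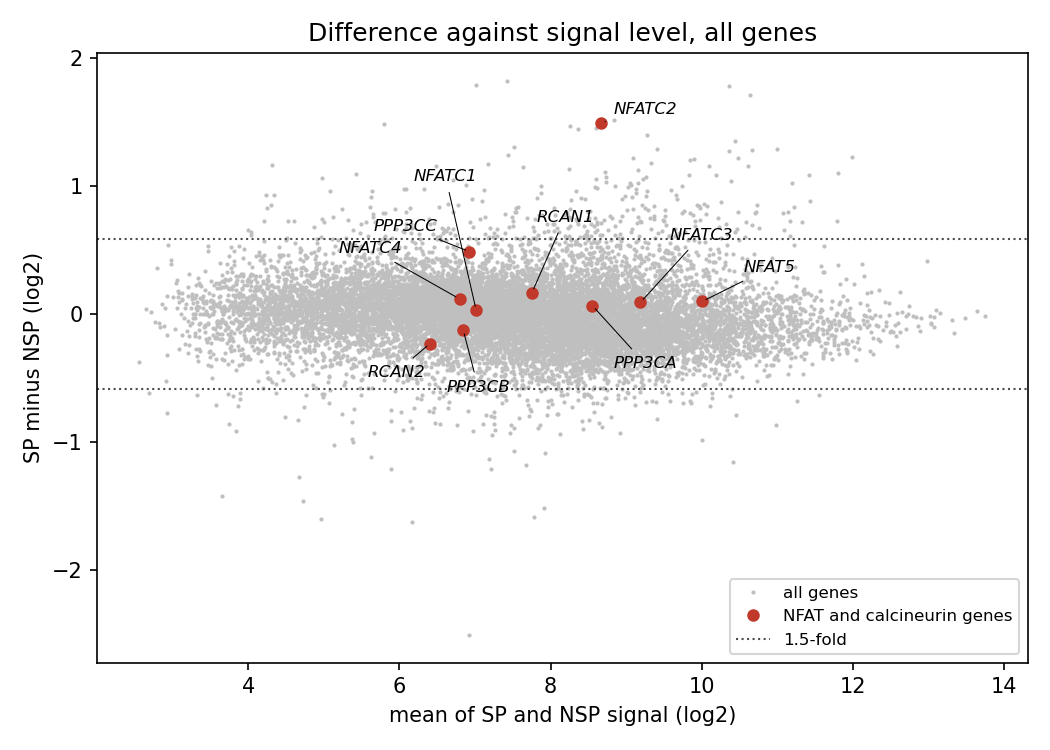
Difference, SP minus NSP (log2, vertical axis), against the mean of both signals (log2, horizontal axis) for all 14232 genes (grey) and the 10 NFAT and calcineurin genes (red), with dotted lines at 1.5-fold. NFATC2 lies far above the upper dotted line at 1.5, PPP3CC just under it at 0.49, and the other 8 genes between -0.23 and 0.17.

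The genes whose pair of values lay nearest to that of NFATC2, by the straight-line distance between (SP, NSP) points over the 2 arrays, were ELL2, CPEB2, LRRC8C, STC1 and UPP1. ELL2, an elongation factor gene, was at a distance of 0.10, with 9.32 in SP and 7.87 in NSP. CPEB2, which encodes an mRNA-binding protein, followed at 0.25, with 9.60 in SP and 8.08 in NSP. LRRC8C, which encodes a subunit of volume-regulated anion channels, had 9.28 in SP and 8.17 in NSP. STC1, which encodes the hormone stanniocalcin, had 9.26 in SP and 8.19 in NSP. UPP1, a uridine phosphorylase gene, had 9.13 in SP and 8.08 in NSP. These last 3 genes lay at distances of 0.29 to 0.32. With 2 arrays, the distance says only that the pairs of values were close. The difference was 1.45 for ELL2 and 1.52 for CPEB2, near the 1.5 of NFATC2. It was smaller for LRRC8C (1.11), STC1 (1.08) and UPP1 (1.06).

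Genes that raise calcium upstream of calcineurin did not differ by 1.5-fold in either direction. Among all genes at the floor, 3.1% were higher in SP by that margin and 1.43% lower. Of 13 listed, 9 were measured by a probe set of their own, 8 reached the floor, and the list's median difference was -0.10. ORAI2, a channel subunit of store-operated calcium entry, had 8.77 in SP and 9.13 in NSP, a difference of -0.36. ORAI3 had -0.18, and STIM1, the calcium sensor of the endoplasmic reticulum that opens these channels, had -0.20. Its relative STIM2 had 0.13 and the phospholipase gene PLCG2 0.22.

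Of 8 listed partners of calcineurin, 7 were measured by a probe set of their own and PPP3R1 was not. The 5 that reached the floor gave 0 at 1.5-fold. Lower values in SP were found for 6 of the 7 measured genes, and the list's median was -0.14. For comparison, 49.5% of all genes and 59.6% of genes at the floor were lower in SP. At 1.5-fold, 3.1% of genes at the floor were higher in SP and 1.43% lower. RCAN3, the remaining RCAN gene, had 7.48 in SP and 7.74 in NSP, a difference of -0.26. CABIN1, a calcineurin inhibitor, had -0.14. The immunophilin genes PPIA and FKBP1A, whose products bind the drugs cyclosporin and tacrolimus and so block calcineurin, had -0.14 and -0.04. CHP1, a calcineurin B homologue that can inhibit the phosphatase, was the one gene higher in SP, at 0.09.

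Among 12 measured kinases and scaffolds that act on NFAT, 10 reached the floor. Beside 3.1% of all genes at the floor, 1 of these 10 was at least 1.5-fold higher in SP. This was DYRK1A, a kinase that primes NFAT for export from the nucleus, with 9.72 in SP and 8.80 in NSP, a difference of 0.92 or 1.90-fold. Its relative DYRK2 had a difference of 0.20. CSNK1A1, a casein kinase gene, was read by a pair of probe sets that were both higher in SP, by 0.38 and 0.27. GSK3A had -0.27, GSK3B 0.12 and the stress kinase gene MAPK9 -0.13. The list's median was 0.08.

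Of 18 listed genes described as NFAT targets, 13 were measured and 5 of them reached the floor. Of these 5, 4 were at least 1.5-fold higher in SP, beside 3.1% of all genes at the floor. CXCL8, the neutrophil chemokine, had 10.24 in SP and 9.23 in NSP, a 2.01-fold difference. The growth regulator MYC had 11.16 in SP and 10.31 in NSP. NR4A1, an orphan nuclear receptor gene induced by calcium signals, had 9.90 in SP and 9.13 in NSP, a 1.70-fold difference. VEGFA, the endothelial growth factor, had 10.94 in SP and 10.22 in NSP, and PTGS2 (cyclooxygenase 2), the last of the 5, had 8.07 in SP and 7.93 in NSP. These genes are also targets of other factors, including NF-kB, AP-1 and hypoxia-inducible factor, and the list was chosen with earlier results of these arrays known, so the count is not independent evidence about NFAT. The classical lymphocyte targets were dim on both arrays: IL2 had 3.45 in SP and 3.42 in NSP, IL4 4.81 in SP and 5.22 in NSP, IFNG 3.61 in SP and 3.46 in NSP, and TNF 6.06 in SP and 6.17 in NSP. Over all 13 the median difference was 0.14, beside 0.00 for all genes. Over the 5 that reached the floor on both arrays it was 0.77, beside -0.05 for all genes at the floor on at least 1 array. Both medians come from the same chosen list, and the 0.77 restates that 4 of the 5 were high.

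Targets of NFAT5 in osmotic stress were mixed. SGK1, a serum- and osmotically induced kinase gene, had 11.95 in SP and 10.87 in NSP, a 2.12-fold difference. It was the only one of 4 at the floor past 1.5-fold, beside 3.1% of all genes at the floor higher by that margin. The osmolyte carrier genes SLC5A3 (myo-inositol) and SLC6A6 (taurine) had differences of -0.18 and -0.24. HSPA4L, a chaperone gene induced by osmotic stress, had 0.34. The median of the 6 measured genes was 0.11.

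**Figure D3:**
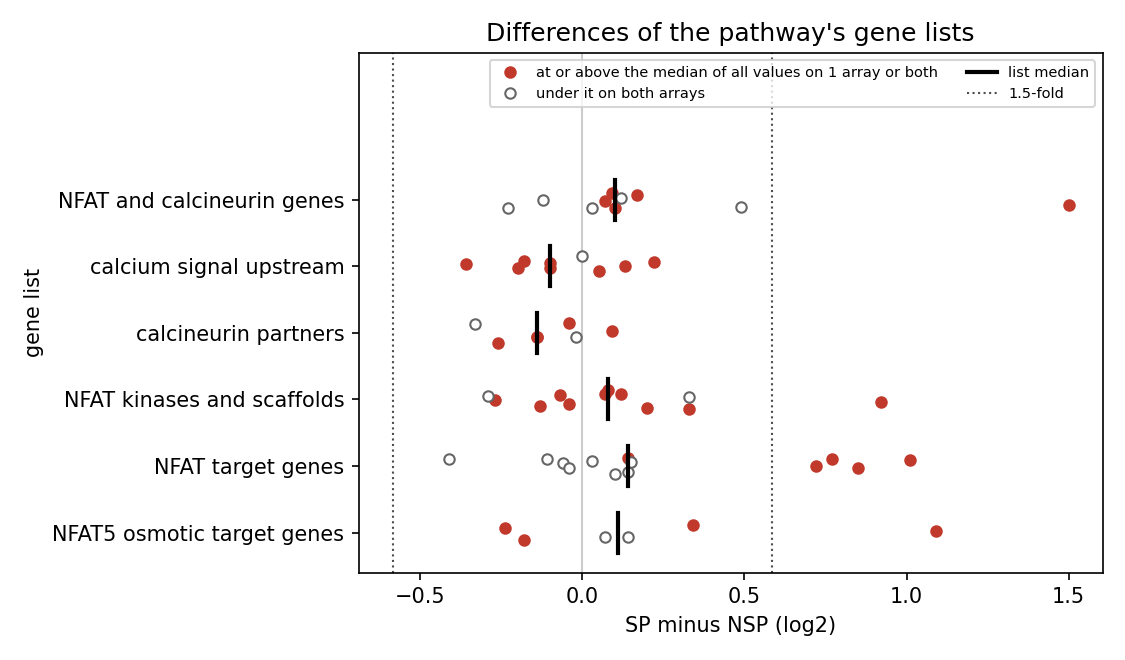
Difference, SP minus NSP (log2, horizontal axis), of each measured gene in the NFAT and calcineurin set and in 5 related gene lists, filled where a value reached the floor and open where both were under it, with list medians as bars and dotted lines at 1.5-fold. Points past the upper line are NFATC2 at 1.5, DYRK1A at 0.92, 4 target genes from 0.72 to 1.01 and SGK1 at 1.09; no point passes the lower line.

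NFATC2 is abundant in lymphocytes, so leukocyte markers were read on the same arrays. None of 11 measured markers reached the floor. They ran from 3.74 to 7.37 in SP and from 3.80 to 7.10 in NSP, and the log2 of their summed signal was 9.67 in SP and 9.55 in NSP. The pan-leukocyte gene PTPRC had 3.74 in SP and 3.80 in NSP. The T cell receptor genes CD3D, CD3E and CD3G had 5.05, 4.90 and 4.69 in SP, against 5.09, 5.13 and 4.69 in NSP. Over the 11 markers, 6 had a higher value in SP and 3 a lower one, beside 49.2% of all genes with a higher value. The largest difference was that of MS4A1, 0.27, with 7.37 in SP and 7.10 in NSP. RMA values have no zero, so the marker values are dim signals and not counts of 0.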

How the data were processed

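Total RNA of J82 SP and NSP cells was measured on 1 human exon array each. Per the submitters' processing notes, the authors made the deposited log2 values with RMA and Partek. The sources used here do not give software versions, filters or how probe sets were defined. That the scale is log2 was inferred from the use of RMA and from the values' range. Probe intensities were not used here, so detection above background was not computed, and the number of arrays limits the precision.

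Of 22011 probe sets, 14432 had 1 gene symbol, 2408 several and 5171 none; Entrez identifiers matched 14404 single-symbol sets to RefSeq symbols. A gene's value is the mean of its single-symbol probe sets. The difference is SP minus NSP, and the fold is 2 to the power of its size. Counts at 1.5-fold use genes at or above the median of all values (the floor) on at least 1 array. All 10 genes are named, with up to 5 genes of each list with the largest difference above that floor, the 5 genes nearest to NFATC2, and list genes whose level or absence bears on a statement. The 5 genes further above NSP than NFATC2, the marker genes and some dim or unmeasured list genes were named after their values were seen. Members and lists were chosen with earlier results of these data known. No test was run across genes, and the code was tested on simulated data. Alternatives were other floors, a 2-fold threshold, median centring, removal of a lowess trend (span 0.3), quantile normalisation, the brightest probe set and the addition of probe sets of several genes. Python 3.11.15, numpy 2.4.6, pandas 2.3.3, statsmodels 0.14.6 and matplotlib 3.10.9 were used.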

Additional observations from a re-analysis of the deposited data

How the results depend on the processing

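The difference of NFATC2 was 1.56 with the lowess trend removed and 1.53 after quantile normalisation; other floors, the threshold and the probe set choices cannot change it, and median centring left it at 1.5. None of the 10 genes changed sign, although NFATC1 came to 0.00 with the lowess trend removed. Of 227 recomputed values, 164 were identical to the reported ones, among them those whose value the setting does not enter. Of the 63 that differed before rounding, 59 stayed within 0.1 (log2) or, for counts, within 1.5 times. That tolerance is a choice, since no replicate spread exists. Median centring gave 16 of the 63, and these were unchanged after rounding, so their staying within the tolerance shows little. With the floor required on both arrays, 5 of 5 remaining genes of the set were higher in SP, beside 39.2% of all genes at the floor on both arrays. The median of the NFAT target list, chosen with earlier results known, became 0.77 over its 5 remaining genes. At 2-fold in place of 1.5-fold, 0 kinases and scaffolds and 1 target gene (CXCL8) were higher in SP, beside 0.609% of genes at the floor. No paired analysis was possible because each population has 1 array. Leaving out a replicate was not possible for the same reason. Signal over background was not computed, so what dim signals limit is not known.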
